A study of Homo sapiens with 13 samples.

Results

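The 10 genes described here encode BCL2 family proteins, which decide whether the outer mitochondrial membrane is opened in apoptosis. They were taken by name and are 5 BH3-only genes (BCL2L11, BBC3, PMAIP1, BMF and BID), 2 effectors (BAX and BAK1) and 3 survival genes (BCL2, BCL2L1 and MCL1), of 63241 genes counted. All 10 were found under a single Ensembl ID each and all 10 passed the filter on low counts.

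In this family the effectors BAX and BAK form pores in the mitochondrial outer membrane and let cytochrome c out. Survival proteins hold the effectors and the BH3-only proteins in check, and BH3-only proteins, raised by transcription or activated by cleavage and other modifications under stress, neutralise survival proteins or activate the effectors directly. In heart cells the balance between these classes is known to bear on death after ischaemia and other mitochondrial injury. All values below are messenger RNA, which sets no protein level or activity.

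The study sequenced poly-A RNA of AC16 cells, a human line derived by fusing ventricular heart muscle cells with transformed fibroblasts, in 13 libraries. The groups were 3 control libraries, 3 of cells given FCCP, 4 of preconditioned cells and 3 of cells given preconditioning and FCCP. FCCP carries protons across the inner mitochondrial membrane and so uncouples respiration, and the preconditioning is optogenetic, in cells expressing a construct named mOpto. All libraries are labelled wildtype, the FCCP libraries are titled as control cells with FCCP, and the labels give no dose, time or light schedule and do not state for each group whether it carried the construct.

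Libraries held 14970803 to 20636229 gene counts. The labels do not tie replicates to separate cultures; p-values therefore measure spread among libraries that may be technical only. By their share of reads aligned at more than 1 place, libraries were parted into 2 sets, cut at the largest gap between sorted shares (5.22% to 7.13%). The higher-share set of 6 held control 1 and 2, FCCP 1 to 3 and preconditioning+FCCP 3 (7.13% to 11.5%). The lower-share set of 7 held control 3, preconditioning 1 to 4 and preconditioning+FCCP 1 and 2 (3.16% to 5.22%). Smaller gaps lay within the higher-share set, from 8.44% to 9.79% and from 10.0% to 11.5%, so the cut is a choice. Control 3 and preconditioning+FCCP 3 lay in the other set from the rest of their groups, FCCP 1 differed from FCCP 2 and 3 in several members, and values without each of them are given where they change a call. The cells are labelled as myocytes, yet of 12 cardiomyocyte markers 9 stayed under 1 CPM (read counts scaled for library depth) in every library and TNNT2 had no read, while all 10 fibroblast markers passed the filter. A sum of the fibroblast markers is weighted towards collagen RNA. COL1A1, COL1A2 and COL3A1 reached 4879, 1707 and 673 CPM, and PDGFRA, POSTN and FAP at most 11.9, 8.64 and 57.6 CPM. The summed fibroblast markers stood at 997 to 1150 CPM in preconditioning+FCCP, against 3633 to 7545 CPM in control, 4370 to 7657 CPM in FCCP and 5698 to 6504 CPM in preconditioning. This difference lies along each comparison with preconditioning+FCCP below, its part in them was not tested, and in bulk RNA fewer cells of a type and less RNA per cell cannot be told apart.

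Per length, the family spanned a wide range of levels, from abundant MCL1 and BAX to scarce BCL2. In control cells MCL1 stood at 67.0 ± 20.7 and BAX at 59.5 ± 7.55 CPM per kb of exon (mean ± SD, n = 3), and these overlapped. PMAIP1 followed at 36.5 ± 12.3, BCL2L1 at 25.3 ± 3.39, BAK1 at 18.5 ± 2.83 and BID at 14.3 ± 1.21 CPM per kb (SD, n = 3). PMAIP1 overlapped BCL2L1 in range and BAK1 overlapped BID, while BCL2L1 lay above BAK1 without overlap. These levels divide by all exon bases, of which 43.0% in BCL2L1 and 10.9% in BCL2L11 overlap an antisense gene. What this does to the order of the genes was not tested. The scarce members in control were BBC3 at 5.15 ± 0.943, BCL2L11 at 1.07 ± 0.191, BMF at 0.642 ± 0.334 and BCL2 at 0.276 ± 0.114 CPM per kb (SD, n = 3). BMF overlapped both BCL2L11 and BCL2. With preconditioning+FCCP, BCL2L11 reached 6.44 ± 1.34 CPM per kb (SD, n = 3). BCL2 was the scarcest member per kb in 12 of 13 libraries, and BMF in control 3.

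**Figure D1:**
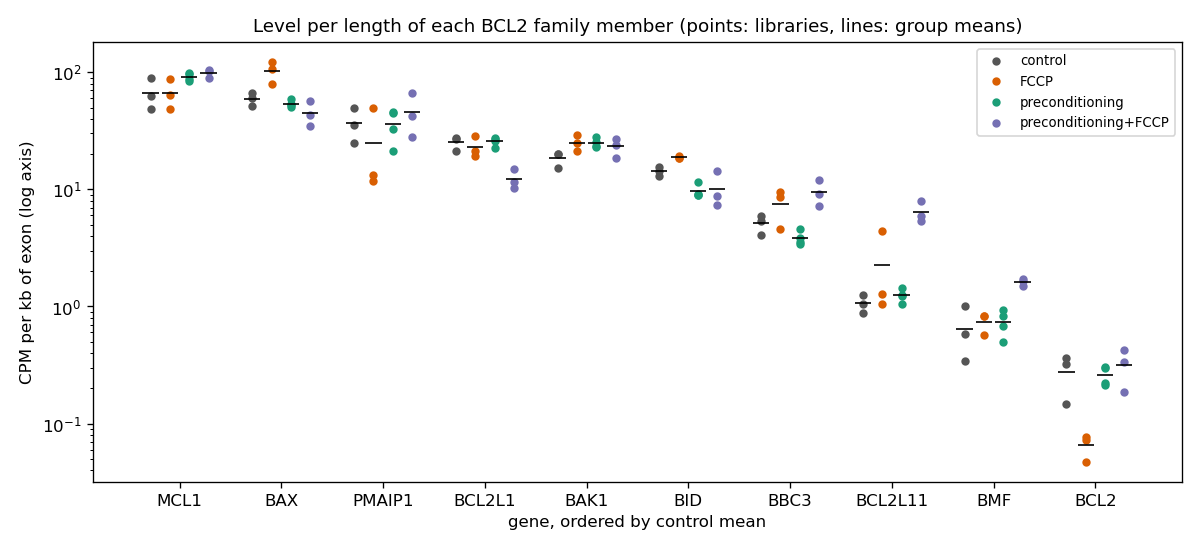
Level of each BCL2 family gene in CPM per kb of exon on a log axis, with a point for each library (colour gives the group) and a line at each group mean. Genes are ordered by their control mean, from MCL1 at 67.0 to BCL2 at 0.276 CPM per kb.

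Of the 10 members the BH3-only gene BCL2L11 had the largest called log2 change, in cells given both treatments. BCL2L11 encodes BIM, which binds all major survival proteins and can activate BAX. It stood at 5.85, 7.04 and 8.38 CPM in control 1 to 3, at 8.29, 7.05, 8.23 and 9.67 CPM in preconditioning 1 to 4, and at 36.0, 39.8 and 53 CPM in preconditioning+FCCP 1 to 3. In FCCP 1 to 3 it was at 29.4, 7.04 and 8.49 CPM. All 3 doubly treated libraries lay above every other library, and FCCP 1 lay between them and the rest.

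BCL2L11 rose 5.16-fold in preconditioning+FCCP against preconditioning (log2 change 2.37 ± 0.37, SE, edgeR adjusted p = 0.000232). The rise was 2.19 on the log2 scale within the lower-share set (adjusted p = 6.26e-07). Against FCCP it rose 2.87-fold (log2 1.52 ± 0.40, adjusted p = 0.0089). Within the higher-share set the latter change was 1.80 (adjusted p = 0.13, with 1 doubly treated library), without FCCP 1 it was 2.46 (adjusted p = 3.26e-05), and without FCCP 3 it was 1.20 and its call ended (adjusted p = 0.0543).

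FCCP without preconditioning gave a BCL2L11 change of 1.08 ± 0.41 (log2 ± SE, adjusted p = 0.15), and 0.10 without FCCP 1; with no filter on low counts it was called (1.11, adjusted p = 0.0061). Preconditioning alone gave 0.23 ± 0.38 (adjusted p = 0.696), with an interval of −0.58 to 1.04. The interaction, which is the FCCP change in preconditioned cells minus the FCCP change in the others, was 1.29 ± 0.55 (log2 ± SE, adjusted p = 0.106). It was called without FCCP 1 (2.24, adjusted p = 0.000444) and with no filter on low counts (1.2, adjusted p = 0.0159). DDIT3, the stress factor CHOP known to act on BCL2L11, was also high in FCCP 1, at 71.5 CPM against 18.0 and 13.2 CPM in FCCP 2 and 3. It stood at 71.5, 66.5 and 110.0 CPM in preconditioning+FCCP 1 to 3. Among the FCCP libraries, ATF4 (2270 against 965 and 758 CPM) and ATF3 (284.6 against 87.3 and 56.1 CPM) were likewise highest in FCCP 1. Of the FOXO genes, FOXO3 was also highest there (93.3 against 64.0 and 43.2 CPM). FOXO1 was lowest there (2.01 against 3.55 and 3.18 CPM), on 29 to 54 counts a library. Any part of these factors in the BCL2L11 change was not tested. Of the exon bases of BCL2L11, 10.9% overlap the antisense gene MIR4435-2HG, which had 245 to 306 counts in the doubly treated libraries and 847 to 913 in preconditioning; whether this moved the BCL2L11 count was not tested.

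BBC3 and BMF rose beside it. BBC3 encodes PUMA, a p53 target that binds all survival proteins, and BMF encodes a protein held at the cytoskeleton until released. BBC3 stood at 10.9, 12.3, 11.3 and 14.6 CPM in preconditioning 1 to 4 and at 23.0, 28.9 and 38.4 CPM in preconditioning+FCCP 1 to 3, with no overlap. It was at 17.1, 18.9 and 13.1 CPM in the control libraries, against 30.0, 14.5 and 27.4 CPM in FCCP 1 to 3, so the FCCP libraries spread across the control and the doubly treated levels. Against preconditioning BBC3 rose 2.45-fold in preconditioning+FCCP (log2 1.29 ± 0.25, adjusted p = 0.00105), and by 1.09 within the lower-share set. Against FCCP the change was 0.33 ± 0.27 (adjusted p = 0.358), with an interval of −0.24 to 0.90.

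BMF stood at 9.38, 9.08 and 8.14 CPM in preconditioning+FCCP 1 to 3, above every other library. Its values were 3.74, 2.73, 4.50 and 5.04 CPM in preconditioning, 3.15, 5.46 and 1.88 CPM in control and 3.12, 4.48 and 4.49 CPM in FCCP, from 30 to 97 counts a library. BMF rose 2.21-fold against preconditioning (log2 1.15 ± 0.33, adjusted p = 0.012; 1.21 within the lower-share set) and 2.20-fold against FCCP (log2 1.14 ± 0.36, adjusted p = 0.0228). The second change was 1.00 within the higher-share set (adjusted p = 0.22). The BMF interaction was 0.94 ± 0.49 (adjusted p = 0.187), and without control 3 it was called (1.24, adjusted p = 0.04996). The call against FCCP ended without FCCP 1, 2 or 3 and without preconditioning+FCCP 1 or 2, with changes of 0.98 to 1.20 and adjusted p-values of 0.0542 to 0.0646.

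The upstream sequences of these 3 genes, which rose in preconditioning+FCCP against preconditioning, and of BAX, which was lower in preconditioning+FCCP than in FCCP, are given so that their motif matches can be set side by side. Each is the 250 bases before the start site in RefSeq on GRCh38.p14, 5′ to 3′ along the gene's own strand, with motif matches in capitals. BCL2L11 lies at chr2:111120664-111120913 on the plus strand, BBC3 at chr19:47232668-47232917 on the minus strand, BMF, by 1 of 2 listed starts, at chr15:40108880-40109129 on the minus strand, and BAX at chr19:48954625-48954874 on the plus strand.
BCL2L11: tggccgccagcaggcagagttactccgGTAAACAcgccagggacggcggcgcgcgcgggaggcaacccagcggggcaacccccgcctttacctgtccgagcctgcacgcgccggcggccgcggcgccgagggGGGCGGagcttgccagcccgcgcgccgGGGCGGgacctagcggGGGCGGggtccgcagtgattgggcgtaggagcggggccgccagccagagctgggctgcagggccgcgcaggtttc
BBC3: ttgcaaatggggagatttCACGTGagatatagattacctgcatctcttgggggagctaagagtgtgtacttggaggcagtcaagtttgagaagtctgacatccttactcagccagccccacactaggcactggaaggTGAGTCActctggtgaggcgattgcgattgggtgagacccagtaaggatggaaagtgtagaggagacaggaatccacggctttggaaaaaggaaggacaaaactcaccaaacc
BMF: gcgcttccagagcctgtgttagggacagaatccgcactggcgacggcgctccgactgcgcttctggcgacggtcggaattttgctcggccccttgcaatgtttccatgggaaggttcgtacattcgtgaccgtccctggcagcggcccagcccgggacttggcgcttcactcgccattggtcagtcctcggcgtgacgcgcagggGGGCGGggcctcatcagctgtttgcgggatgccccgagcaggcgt
BAX: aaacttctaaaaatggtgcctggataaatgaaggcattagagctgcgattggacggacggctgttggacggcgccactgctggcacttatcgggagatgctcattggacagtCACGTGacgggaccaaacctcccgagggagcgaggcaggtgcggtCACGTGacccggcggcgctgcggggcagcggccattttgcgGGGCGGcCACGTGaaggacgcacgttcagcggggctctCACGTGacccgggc
Capitals mark GTAAACA (a FOXO site), CACGTG (an E-box), TGANTCA (an AP-1 site) and GGGCGG (a GC box), each searched on both strands together with TGACGTCA (a CRE) and TGATGNAA (a composite site of ATF4 and C/EBP), which matched none of the 9 members with a promoter entry. BCL2L11 holds a FOXO match 223 bases before its start, BBC3 an E-box and an AP-1 match 232 and 113 bases before, and BAX 4 E-boxes between 138 and 14 bases before. The GC box is in BCL2L11, BMF and BAX and not in this window of BBC3. Among 35116 promoter windows of the same length, 2.98% held the FOXO site, 6.34% the E-box, 6.57% the AP-1 site, 1.65% the CRE, 3.14% the composite site and 42.6% the GC box. A match is a string of letters and shows no binding, and MCL1 has no entry.

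PMAIP1 and BID completed the BH3-only class and were not called in preconditioning+FCCP against preconditioning, where the other 3 rose. The PMAIP1 change there was 0.35 ± 0.43 (log2 ± SE, edgeR adjusted p = 0.547), with a wide interval of −0.57 to 1.27. That of BID was 0.07 ± 0.20 (adjusted p = 0.818). PMAIP1 encodes NOXA, which binds MCL1 in particular. It stood at 79.6, 55.2 and 110.0 CPM in control, 109.6, 26.6 and 29.8 CPM in FCCP 1 to 3, 101.6, 100.4, 47.2 and 72.7 CPM in preconditioning 1 to 4, and 63.2, 94.7 and 149.6 CPM in preconditioning+FCCP 1 to 3. FCCP 2 and 3 were the lowest of all libraries and FCCP 1 among the highest. The FCCP change of PMAIP1 was −0.56 ± 0.47 (log2 ± SE, adjusted p = 0.535), and without FCCP 1 it was called lower at −1.56 (adjusted p = 0.0368). Likewise the change of preconditioning+FCCP against FCCP was 0.89 ± 0.47 (adjusted p = 0.149) with FCCP 1 and 1.86 (adjusted p = 0.0022) without it, and it was called with no filter on low counts (0.91, adjusted p = 0.00082).

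BID, cleaved by caspase-8 to link death receptors to mitochondria, was highest under FCCP alone. It stood at 82.5, 85.6 and 81.7 CPM in FCCP, 63.5, 69.0 and 58.2 CPM in control, 39.5, 40.8, 51.9 and 39.8 CPM in preconditioning and 32.9, 38.7 and 63.6 CPM in preconditioning+FCCP. FCCP libraries lay above control without a call (log2 0.39 ± 0.21, adjusted p = 0.318). BID fell by 0.89 in preconditioning+FCCP against FCCP (log2, SE 0.21, adjusted p = 0.00563), and the value was −0.40 within the higher-share set (adjusted p = 0.33). Preconditioning libraries lay below control, at −0.56 ± 0.20, which missed the threshold by edgeR (adjusted p = 0.0504) and passed it by DESeq2 (−0.57, adjusted p = 0.042) and limma-voom (−0.57, adjusted p = 0.0442). It also passed with the compared groups alone (adjusted p = 0.0149), without control 3 (−0.63, adjusted p = 0.0363) and without preconditioning 3 (−0.67, adjusted p = 0.0445), and was called in 6 of 17 alternatives.

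**Figure D2:**
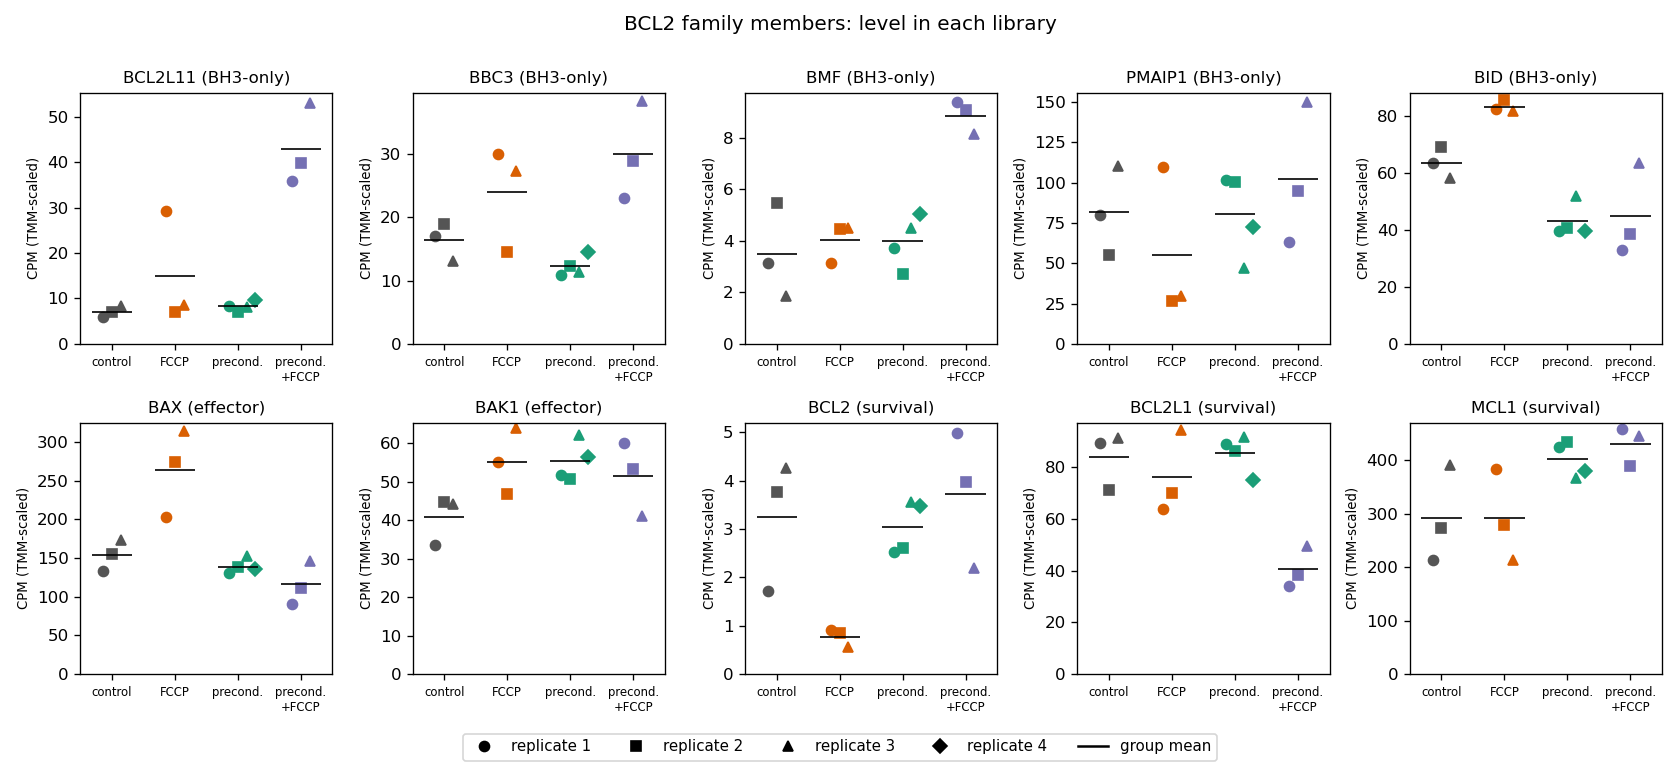
CPM of the 10 BCL2 family genes in each of the 13 libraries, a panel for each gene from 0 upwards, with symbols for replicate numbers, colours for groups and lines at group means. BCL2L11 and BMF lie above all other libraries in the 3 doubly treated ones, BAX is highest and BCL2 lowest in the 3 FCCP libraries, and BCL2L1 is lowest in the 3 doubly treated ones.

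Of the effectors, BAX was highest under FCCP alone. BAK1 lay above control in the FCCP and preconditioning libraries without a call. BAX, a cytosolic protein that inserts into the outer membrane when activated, stood at 133.9, 155.2 and 173.0 CPM in the control libraries, against 203.7, 274.0 and 314.1 CPM in FCCP 1 to 3. It was at 130.4, 138.3, 152.4 and 135.3 CPM in preconditioning and at 90.5, 111.2 and 146.4 CPM in preconditioning+FCCP. The FCCP libraries lay above all other 10 libraries.

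BAX rose 1.71-fold with FCCP (log2 0.78 ± 0.20, adjusted p = 0.0469), close to the threshold. The change was 0.91 within the higher-share set (adjusted p = 0.137), and the call ended without control 1, control 2, FCCP 2 or FCCP 3, with changes of 0.62 to 0.77. It also ended with library totals alone (adjusted p = 0.0545), by limma-voom (adjusted p = 0.0512), with the compared groups alone (adjusted p = 0.216) and with the replicate block (adjusted p = 0.0626), and held in 6 of 16 alternatives. In preconditioning+FCCP against FCCP, BAX was 2.27-fold lower (log2 −1.19 ± 0.20, adjusted p = 0.000797), at −0.86 within the higher-share set (adjusted p = 0.121). FCCP in preconditioned cells gave −0.26 ± 0.19 (adjusted p = 0.286), with an interval of −0.66 to 0.14. In the lower-share set, which left out preconditioning+FCCP 3, that value was −0.46 and was called (adjusted p = 0.00894). The interaction for BAX was −1.04 ± 0.28 (log2 ± SE, adjusted p = 0.0175), so its FCCP change differed with preconditioning by the test of the difference itself, and this call ended without FCCP 3 (−0.91, adjusted p = 0.0504).

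BAK1, the effector that resides in the mitochondrial membrane, stood at 33.7, 44.7 and 44.3 CPM in control, 55.0, 46.7 and 63.9 CPM in FCCP, 51.8, 50.8, 62.1 and 56.4 CPM in preconditioning and 60.0, 53.3 and 41.2 CPM in preconditioning+FCCP. Control was the lowest group and did not overlap FCCP or preconditioning, while the other 3 groups overlapped. No comparison called it: the FCCP change was 0.43 ± 0.19 (log2 ± SE, adjusted p = 0.211) and the preconditioning change 0.44 ± 0.18 (adjusted p = 0.0877). Its change in preconditioning+FCCP against FCCP was −0.10 ± 0.19 (adjusted p = 0.707), with an interval of −0.50 to 0.30.

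Of the 3 survival genes, BCL2 was called higher and BCL2L1 lower in preconditioning+FCCP against FCCP, and MCL1 was not called by edgeR. BCL2 encodes the founding survival protein of the outer membrane, and its RNA was scarce in these cells. It stood at 0.902, 0.856 and 0.552 CPM in FCCP 1 to 3, from 8 to 13 counts a library, against 1.72, 3.76 and 4.25 CPM in the control libraries. It was at 2.53, 2.61, 3.55 and 3.48 CPM in preconditioning, against 4.98, 3.98 and 2.20 CPM in preconditioning+FCCP, so FCCP libraries lay below all others and the remaining groups overlapped.

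BCL2 was 4.18-fold lower with FCCP (log2 −2.06 ± 0.45, adjusted p = 0.0236) and −1.77 within the higher-share set (adjusted p = 0.197). This call ended without control 2, FCCP 2 or FCCP 3, with changes of −2.15 to −1.88 and adjusted p-values of 0.0529 to 0.0801. It also ended by limma-voom (adjusted p = 0.0627), with the compared groups alone (adjusted p = 0.209) and with the replicate block (adjusted p = 0.0818), and held in 9 of 16 alternatives. It was 4.80-fold higher in preconditioning+FCCP than in FCCP (log2 2.26 ± 0.44, adjusted p = 0.00165), and 1.49 on that scale within the higher-share set (adjusted p = 0.208). These comparisons share the FCCP libraries, so they are not independent. FCCP in preconditioned cells gave 0.29 ± 0.37 (adjusted p = 0.561), and the interaction was 2.35 ± 0.58 (adjusted p = 0.0113), called under all 21 alternatives tried.

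BCL2L1, whose main product BCL-XL binds BAX, BAK and BIM, was the survival gene that fell under the double treatment. It stood at 34.1, 38.4 and 49.3 CPM in preconditioning+FCCP 1 to 3, below every other library. The values were 89.3, 71.0 and 91.4 CPM in control, 63.8, 70.1 and 94.2 CPM in FCCP and 89.0, 86.1, 91.8 and 74.9 CPM in preconditioning, and these groups overlapped. BCL2L1 was 2.10-fold lower than in preconditioning (log2 −1.07 ± 0.18, adjusted p = 0.000431; −1.23 within the lower-share set, adjusted p = 8.95e-06) and 1.87-fold lower than in FCCP (log2 −0.90 ± 0.19, adjusted p = 0.00276; −0.63 within the higher-share set, adjusted p = 0.219). FCCP alone gave −0.14 ± 0.19 (adjusted p = 0.719), and the interaction was −0.93 ± 0.26 (adjusted p = 0.0236). The interaction call ended without control 2 (−0.84), FCCP 3 (−0.77) or preconditioning+FCCP 2 (−0.90). Of the exon bases of BCL2L1, 43.0% overlap the antisense gene ABALON, to which 2 reads in 1 library and none in the other 12 were counted. What this overlap does to the BCL2L1 count was not tested.

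MCL1, a short-lived protein that holds BAK and BIM, was the most abundant survival gene. It stood at 213.1, 274.3 and 391.0 CPM in control, 384.3, 279.0 and 213.1 CPM in FCCP, 424.3, 434.5, 367.8 and 381.0 CPM in preconditioning and 458.3, 389.0 and 445.7 CPM in preconditioning+FCCP. Both groups without preconditioning spread widely, and control 3 and FCCP 1 reached the preconditioned levels. MCL1 was called in no comparison by the edgeR fit of all libraries: preconditioning+FCCP lay above FCCP without overlap at 0.56 ± 0.23 (log2 ± SE, adjusted p = 0.0728), and preconditioning against control gave 0.46 ± 0.22 (adjusted p = 0.142). Without FCCP 1 the former was 0.81 and called (adjusted p = 0.0147), as it was with library totals alone (0.75, adjusted p = 0.0248) and by limma-voom (0.60, adjusted p = 0.0489), and without control 3 the latter was 0.71 and called (adjusted p = 0.0209).

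Read by comparison, FCCP alone called few genes in all, 2 family members among them. FCCP against control called 2 of 10 members, BAX higher and BCL2 lower, against 3.52% of all 16756 genes tested (1.6% higher and 1.92% lower). BAX, BID and BAK1 lay above control and BCL2 below it without overlap, where 8.84% and 10.4% of all genes did so (19.3% together). The median log2 change of the members was 0.30, and that of all genes −0.04. In absolute size the medians were 0.49 for the members and 0.35 for all genes. By edgeR 4 members (BCL2L11, BAX, BAK1 and BCL2) had an unadjusted p under 0.05. No BH3-only gene was called. Preconditioning against control called none of 10 by edgeR, against 23.6% of all genes (10.5% higher and 13% lower), and 2 members (BID and BAK1) had an unadjusted p under 0.05. DESeq2 and limma-voom each called 1, which was BID. BAK1 lay above control and BID below it without overlap, where 36.7% of all genes parted (19.4% above and 17.3% below). The median absolute change of the members was 0.21 on the log2 scale, and that of all genes 0.48.

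Preconditioning+FCCP against FCCP called 6 of 10, with BCL2L11, BMF and BCL2 higher and BID, BAX and BCL2L1 lower, against 35.7% of all genes (17.9% higher and 17.7% lower). Each of these 6 had libraries that did not overlap between the groups, as did MCL1, where 43.2% of all genes did so (21.9% above and 21.3% below). Preconditioning+FCCP against preconditioning called 4 of 10, BCL2L11, BBC3 and BMF higher and BCL2L1 lower, against 39.4% of all genes (20.2% higher and 19.2% lower), so the count is near the background. All 4 had libraries without overlap, as did 52.7% of all genes (26.6% above and 26.2% below). These 4 calls held in all 17 alternatives. The interaction called 3 of 10 (BCL2 higher, BAX and BCL2L1 lower) against 19% of all genes (9.38% higher and 9.6% lower), and 5 without FCCP 1, when BCL2L11 and PMAIP1 were added.

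**Figure D3:**
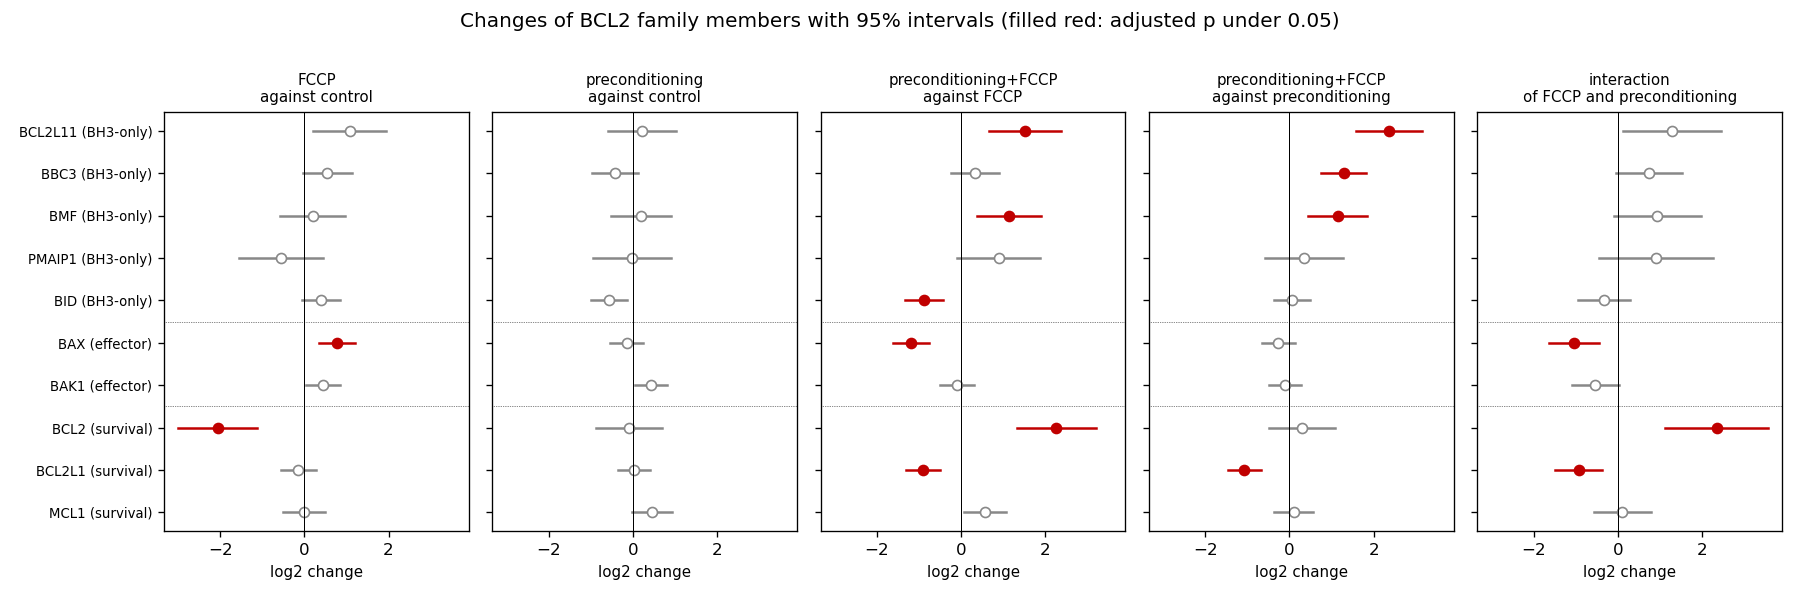
Log2 change of each member (rows, grouped as BH3-only, effector and survival genes) in the 5 comparisons (panels), with 95% intervals; filled red points had an adjusted p under 0.05. All 5 BH3-only genes have values above 0 in preconditioning+FCCP against preconditioning, 3 of them called (BCL2L11 at 2.37), and BAX and BCL2 lie on opposite sides with FCCP alone (0.78 and −2.06).

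Ratios between members within a library do not depend on how libraries are scaled, and are given per kb of exon as a description without a test. Their absolute size rests on the exon lengths, which include the antisense overlaps of BCL2L1 and BCL2L11. The ratio of BCL2L11 to BCL2L1 was 0.526, 0.515 and 0.535 in preconditioning+FCCP 1 to 3. It was 0.0326, 0.0494 and 0.0457 in control, 0.0463, 0.0408, 0.0446 and 0.0642 in preconditioning, and 0.229, 0.05 and 0.0449 in FCCP 1 to 3. The doubly treated libraries, although of both library sets, lay within a narrow band, and FCCP 1 lay between them and the rest.

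BAX to BCL2L1 stood at 4.09, 5.01 and 4.27 in FCCP and 3.40, 3.71 and 3.80 in preconditioning+FCCP, above the 1.92 to 2.80 of control and the 1.88 to 2.31 of preconditioning. Both FCCP groups had more BAX RNA per BCL2L1 RNA than both groups without FCCP. BAX was higher in FCCP and BCL2L1 lower in preconditioning+FCCP. BAX to MCL1 did not follow this order. It was 0.333 to 0.555 in preconditioning+FCCP, below control (0.747 to 1.06) and FCCP (0.896 to 2.49), and overlapped preconditioning. PMAIP1 to MCL1 overlapped between all groups. BAK1 to BCL2L1 in preconditioning+FCCP lay above control and preconditioning and overlapped FCCP. BCL2L11 to MCL1 was highest in preconditioning+FCCP (0.0515 to 0.0781), with FCCP 1 next at 0.0501. MCL1 to BCL2L1 was 6.85 to 10.2 in preconditioning+FCCP and 1.72 to 4.57 in all other libraries. BAX to BCL2 was 1027 to 2586 in FCCP and 82.6 to 354.1 elsewhere. It rests on the 8 to 13 counts of BCL2 in each FCCP library.

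**Figure D4:**
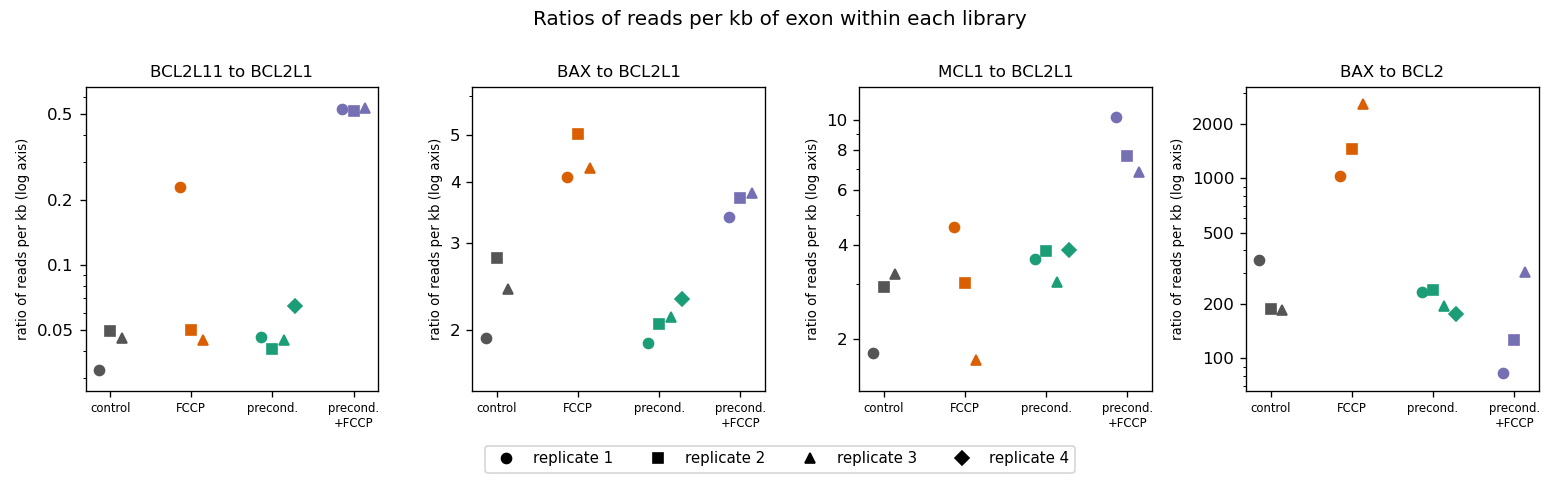
Ratio of reads per kb of exon between 4 pairs of members in each library, on log axes, with symbols for replicate numbers and colours for groups. BCL2L11 to BCL2L1 lies at 0.515 to 0.535 in the doubly treated libraries, and BAX to BCL2L1 is higher in both FCCP groups (3.40 to 5.01) than in control and preconditioning (1.88 to 2.80).

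Summed by class, effector RNA stood at 127.0 ± 23.3 CPM per kb in FCCP, 78.0 ± 10.1 in control (SD, n = 3 each), 78.8 ± 5.74 in preconditioning (SD, n = 4) and 68.1 ± 6.62 in preconditioning+FCCP (SD, n = 3). Survival RNA, mostly MCL1, was 89.8 ± 15.6 in FCCP, 92.6 ± 21.9 in control (SD, n = 3 each), 118.0 ± 8.01 in preconditioning (SD, n = 4) and 111.2 ± 8.90 in preconditioning+FCCP (SD, n = 3). BH3-only RNA overlapped in all 4 groups, with 37.6 to 82.0 in FCCP, 48.3 to 68.0 in control, 38.4 to 59.7 in preconditioning and 50.0 to 102.8 CPM per kb in preconditioning+FCCP. In each group PMAIP1 had the largest mean of this class. In preconditioning+FCCP it averaged 45.9 CPM per kb, against 6.44 for BCL2L11 and 1.63 for BMF. The sum therefore says little about BCL2L11 and BMF, which lay above all other libraries in preconditioning+FCCP.

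Other genes of the pathway were read from 6 lists, with values as log2 change ± SE from the same fit and calls by its adjusted p. The list medians with FCCP lay between −0.20 (other BCL2 family) and 0.08, where that of all genes was −0.04, and in preconditioning+FCCP against FCCP between 0.28 (other BCL2 family) and 0.70 (p53 targets), where that of all genes was 0.0087. Against preconditioning they ran from −0.44 (death receptor arm) to 0.34 (other BCL2 family), beside 0.02 for all genes. The list counts below stand beside these shares of all genes called: 3.52% with FCCP, 23.6% with preconditioning and 19% for the interaction. In preconditioning+FCCP the share was 35.7% against FCCP and 39.4% against preconditioning.

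Of 11 further BCL2 family genes 9 were tested. BCL2L12 rose with FCCP (0.72 ± 0.17) and again with FCCP in preconditioned cells (0.63 ± 0.15), where 4 rose and 1 fell. In that comparison BIK, HRK and BCL2L10 rest on few reads, with 0 to 9 counts a library in preconditioning and 14 to 29 in preconditioning+FCCP. BOK, an effector-like member, fell by 1.74 (SE 0.29) in preconditioning+FCCP against preconditioning and by 2.09 (SE 0.31) against FCCP, with an interaction of −2.38 ± 0.42. It stood at 42.3, 28.8 and 23.8 CPM in the doubly treated libraries and at 64.7 to 194.6 CPM in all others, which do not overlap. BAD, a BH3-only protein controlled by growth factor kinases, was lower than in FCCP (−0.94 ± 0.29). BCL2L10 had a called interaction (3.78 ± 1.26) on 0 to 20 counts a library, which ended when any of 10 of the 13 libraries was left out. Calls also ended for BCL2L12 with FCCP without control 1, FCCP 2 or FCCP 3, and for BAD without FCCP 3 or preconditioning+FCCP 1 or 2. Preconditioning alone called none of the 9, and BCL2L13 had the smallest p (0.36 ± 0.14, adjusted p = 0.077).

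Downstream of the family, FCCP called none of 16 genes of the apoptosome, caspases and their inhibitors, and BIRC6 had the smallest p (−0.69 ± 0.24, adjusted p = 0.122). With preconditioning, APAF1, the scaffold of the apoptosome, rose (1.20 ± 0.27) and the cytochrome c gene CYCS fell by 0.68 (SE 0.18), and 2 rose and 1 fell in all. APAF1 and the caspase inhibitor XIAP were higher in preconditioning+FCCP than in FCCP (1.31 ± 0.28 and 0.97 ± 0.18), with 5 higher and 2 lower. Against preconditioning 4 rose and none fell, including DIABLO (1.41 ± 0.33), which encodes the antagonist of XIAP, and CYCS (0.57 ± 0.18). DIABLO rests on few reads, with 30 to 44 counts a library in preconditioning and 83 to 152 in preconditioning+FCCP. The CYCS calls ended without control 1, control 2 or preconditioning 1 in the former comparison, and without preconditioning 1, 2 or 4 or preconditioning+FCCP 3 in the latter. No interaction was called, and BIRC5 had the smallest p (−0.65 ± 0.23, adjusted p = 0.0626).

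In the death receptor arm 12 of 13 genes were tested. FCCP called none (FADD −0.80 ± 0.43, adjusted p = 0.307), and preconditioning raised the decoy receptor gene TNFRSF10D (1.06 ± 0.26). Preconditioning+FCCP against FCCP called 4 higher and 3 lower, among them RIPK1 (1.45 ± 0.22) and the TRAIL receptor gene TNFRSF10B (1.77 ± 0.33). Against preconditioning 2 rose and 6 fell, with the TNF receptor gene TNFRSF1A at −1.21 ± 0.23 and CFLAR, which encodes the caspase-8 inhibitor c-FLIP, at −0.97 ± 0.22. The interaction called RIPK1 (1.13 ± 0.30) and TNFRSF1A (−1.20 ± 0.33), with 1 higher and 2 lower. Calls ended for TNFRSF10D without control 1, for the RIPK1 interaction without FCCP 2, FCCP 3 or preconditioning+FCCP 2, and for that of TNFRSF1A without FCCP 3.

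Of 15 tested transcription factors known to act on family genes, FCCP alone called 2. MYC fell by 2.12 (SE 0.40) and ATF3 rose by 2.27 (SE 0.49) without preconditioning, and the other 13 were not called. Preconditioning alone called 2 higher and 3 lower, with DDIT3 (−1.43 ± 0.41) and CEBPB (−0.96 ± 0.28) lower. FCCP in preconditioned cells raised DDIT3 (3.52 ± 0.43) and ATF3 (3.28 ± 0.46), with 6 higher and 2 lower, and the interaction was called for DDIT3 (2.70 ± 0.60) and CEBPB (1.5 ± 0.41), with 3 higher in all. Against FCCP 4 rose and none fell, among them TRIB3 (1.87 ± 0.59) and FOXO1 (1.02 ± 0.32). Of the named calls, that of ATF3 with FCCP ended without FCCP 1 (1.2, adjusted p = 0.0571), control 1 or control 2, and that of MYC without FCCP 2. The preconditioning calls ended without any of 5 of 7 libraries for DDIT3 (all but control 3 and preconditioning 4) and 6 of 7 for CEBPB (all but preconditioning 3). Those of TRIB3 and FOXO1 ended without FCCP 3 or preconditioning+FCCP 1 or 2, and also without FCCP 2 and FCCP 1, respectively. The CEBPB interaction ended without preconditioning+FCCP 3.

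Of the p53 targets outside the family, most calls under the double treatment were higher. FCCP alone lowered MDM2 (−0.95 ± 0.17) and raised FDXR (1.02 ± 0.19), 1 in each direction of 14 tested. Preconditioning called 2 higher and 1 lower (ZMAT3 0.66 ± 0.20, GADD45A −1.25 ± 0.38). FCCP in preconditioned cells raised 6, with TIGAR (2.49 ± 0.48) and SESN1 (1.34 ± 0.24), and lowered none, where 20.2% of all genes were called higher and 19.2% lower. The targets CDKN1A and MDM2 overlapped between these groups. CDKN1A stood at 281.4, 251.6 and 162.3 CPM in preconditioning+FCCP and 224.5 to 331.3 CPM in preconditioning. MDM2 stood at 45.3, 52.5 and 38.7 CPM in preconditioning+FCCP and 48.2 to 66.6 CPM in preconditioning. AEN lay lower without overlap and was not called, at 49.6, 52.5 and 53.7 CPM in preconditioning+FCCP and 73.3 to 86.7 CPM in preconditioning. Any part of p53 in the changes of this list was not tested. Against FCCP 7 of the 14 targets were higher and 1 lower (RRM2B 1.14 ± 0.20, FDXR −1.04 ± 0.19), where 17.9% of all genes were higher and 17.7% lower. The interaction was called for GADD45A (1.94 ± 0.57) and FDXR (−1.21 ± 0.27). The GADD45A call with preconditioning ended without control 3 (−0.69, adjusted p = 0.158) or any preconditioning library, and its interaction without control 3, FCCP 2 or 3, or preconditioning+FCCP 2 or 3. That of FDXR with FCCP ended without FCCP 2 or 3, and that of ZMAT3 without control 1 or 2 or preconditioning 1, 2 or 4.

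Among 13 tested genes for proteins that control the family after translation, FCCP called none (BTRC −0.41 ± 0.22, adjusted p = 0.318). GSK3B (0.76 ± 0.18) and USP9X (0.59 ± 0.16), whose product spares MCL1 from degradation, rose with preconditioning. MARCHF5, a mitochondrial ubiquitin ligase, rose in preconditioning+FCCP against both FCCP (0.95 ± 0.18) and preconditioning (0.92 ± 0.17). Against FCCP 5 of these genes were higher and 2 lower, BTRC among the former (1.20 ± 0.22), and against preconditioning 3 were higher and 3 lower, MAPK8 among the former (1.01 ± 0.19). The interaction called MARCHF5 (1.03 ± 0.24) and MAPK8 (1.01 ± 0.29). Calls ended for GSK3B without control 1, for USP9X without control 1, control 2 or preconditioning 1, and for the MAPK8 interaction without control 2, FCCP 2 or 3, or preconditioning+FCCP 1 or 2.

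The member with the smallest adjusted p, BCL2L11, was compared with 10982 genes of at least 5 mean CPM over the 13 libraries. The closest in centred log2 CPM were KCND1, at a root mean square difference of 0.26, SLC25A33 at 0.30 and PDIK1L at 0.32, where BCL2L11 itself varied by 1.09 about its mean. KCND1 stood at 32.1 CPM in FCCP 1 and 11.5 and 11.0 CPM in FCCP 2 and 3, and at 33.2, 50.3 and 67.3 CPM in the doubly treated libraries. The likeness was computed over these same libraries, FCCP 1 included, so these values describe the choice.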

How the data were processed

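The authors' deposited values are raw read counts per Ensembl gene ID. Per the submitters' processing notes, HISAT2 and HTSeq were used with hg19; versions, annotation release and strand setting are not given in the sources used here. Summary rows without a gene stayed out of all totals: 2.13% to 5.20% of reads lay outside genes, 11.0% to 12.4% overlapped several genes and 3.16% to 11.5% aligned to several places. Symbols came from a table of gene names.

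Counts were filtered with the edgeR default (16756 genes), scaled with TMM and tested with the quasi-likelihood method of edgeR 4.0.16 under R 4.3.3, fitting the 13 libraries jointly with 4 group means. Benjamini-Hochberg adjustment ran over every gene tested, with a call at 0.05. The SE is the absolute log2 change over the square root of F, intervals are 95%, and CPM is the depth-scaled read count. Levels per kb used the union of GENCODE 29 exons. Alternatives used limma 3.58.1 and DESeq2 1.42.0. The functions were tested on simulated data.

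Members, lists and tests were chosen with earlier results of these data known. All members are named; of each other list up to 2 called genes per comparison with the smallest p, or 1 where none was called; and 3 genes nearest to the member with the smallest p. All libraries of a group differed from each other by more than sampling noise.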

Additional observations from a re-analysis of the deposited data

Results flagged for a closer look

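Among the 4 preconditioning libraries, preconditioning 3 stood apart in BID, at 51.9 CPM against 39.5, 40.8 and 39.8 CPM, a gap of 0.897 of the range; chance flags about 1 in 20 such groups, and 10 genes were looked at. The FCCP change differed with preconditioning by the test of the interaction for BAX (−1.04 on the log2 scale), BCL2 (2.35) and BCL2L1 (−0.93).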

How the results depend on the processing

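The alternatives were other scalings, no filter on low counts, DESeq2, limma-voom, a fit of the compared groups alone, a replicate block and leaving out each library; those without control 3, FCCP 1 and preconditioning+FCCP 3 together, with the library set as a term and within a set were chosen after seeing the data. FCCP against control called 590 genes and 2 members. It called 1078 genes with no filter, 1326 by DESeq2, 382 by limma-voom (0 members), 17 with the compared groups alone (0 members), 3113 without the 3 libraries, 938 with the set term (1 member) and 21 within the higher-share set (0 members); library totals alone gave 1 member. Preconditioning against control called 3950 genes and 0 members, against 1 member each by DESeq2, limma-voom and the compared groups alone, 8405 genes and 4 members without the 3 libraries, and 459 genes with the set term. Preconditioning+FCCP against FCCP called 5976 genes and 6 members, against 9276 genes without the 3 libraries, 3629 with the set term, and 0 genes and 0 members within the higher-share set, which holds 1 doubly treated library. The interaction called 3180 genes and 3 members, against 6421 genes and 7 members without the 3 libraries. Leaving out each library in turn gave 142 to 893 genes and 0 to 3 members for FCCP, 1506 to 6057 and 0 to 2 for preconditioning, 3848 to 6943 and 4 to 7 for preconditioning+FCCP against FCCP, 5027 to 6146 and 4 to 4 against preconditioning, and 2013 to 4576 and 1 to 5 for the interaction.

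The labels do not say what the replicate numbers stand for. Same-numbered libraries of different groups correlated at −0.200 to 0.158 in their deviations from the group means. Of 18 such pairs 1 was over 0.1, and 2 of 12 libraries correlated best with their own number. Deviations within groups this small cannot decide whether same-numbered libraries shared a culture or day. With the replicate block, FCCP against control called 53 genes and 0 members, preconditioning against control 1840 genes and the interaction 1897 genes.

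Library totals in place of TMM moved the share of calls that were higher from 45.4% to 58.0% for FCCP, from 44.7% to 55.2% for preconditioning and from 50.3% to 64.1% for preconditioning+FCCP against FCCP, and moved the median of all genes by 0.11 and 0.18 in the latter comparisons.

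Of 870 values of members under the alternatives 46 changed sign, none of them called in either fit, and the cause was not tested. For FCCP against control, MCL1 was 0.014 with DESeq2 size factors and by DESeq2, 0.018 with no filter, 0.042 with the compared groups alone, 0.12 with the set term and 0.31 within the higher-share set, where BMF was −0.052; BCL2L1 was 0.0024 without the 3 libraries. For preconditioning, PMAIP1 was 0.076 with library totals, 0.047 with no filter, 0.050 with the replicate block, 0.25 without the 3 libraries and 0.041 with the set term. BCL2 was 0.0082 with library totals, 0.0053 by limma-voom and 0.14 without the 3 libraries, where BMF was −0.12, and within the lower-share set BCL2L11 was −0.013 and BCL2L1 −0.099. Against FCCP, BAK1 was 0.0997 with library totals and 0.027 without the 3 libraries. Against preconditioning, values without the 3 libraries were −0.053 (PMAIP1), −0.29 (BID) and 0.0049 (BAK1), those within the lower-share set −0.017, −0.26 and 0.041, and BID was −0.15 with the set term. Leaving out single libraries gave, for FCCP, −0.12 to 0.66 (BMF) and −0.28 to 0.24 (MCL1); for preconditioning, −0.40 to 0.14 (BCL2), −0.079 to 0.085 (BCL2L1), −0.23 to 0.25 (PMAIP1) and −0.11 to 0.67 (BMF); against FCCP, −0.23 to 0.018 (BAK1); against preconditioning, −0.055 to 0.58 (PMAIP1), −0.29 to 0.23 (BID) and −0.24 to 0.0045 (BAK1); and −0.17 to 0.35 for the MCL1 interaction. BCL2 and BMF rest on few reads, which limits their precision.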
